A study of Mus musculus with 53 samples.

Results

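Mouse embryonic stem (ES) cells labelled Eed-null were set against wild-type ES cells at day 2 after LIF was withdrawn. The arrays were chosen by their titles, which gave 2 Eed-null arrays and 4 wild-type arrays, 6 of the 53 arrays of the series. Wild-type replicates 1 and 2 were of the line J1 and replicates 3 and 4 of the line CJ7. The titles name no line for the Eed-null cells, nor for the Ezh2-null cells, and a difference of genotype cannot be told apart from a difference of line. All these cells had been grown on feeder fibroblasts, which were depleted by letting them settle on tissue plates before the ES cells were taken on. Undifferentiated cells of day 0 were Eed-null (5 arrays) or wild type (7 arrays of J1, CJ7 and E14tg1), cells of day 6 were Eed-null (2 arrays) or wild type (5), and Ezh2-null cells of day 2 filled 4 arrays. The question put by the study was what losing Eed or Ezh2 does to gene expression before and after ES cells start to differentiate. Labels mark the arrays as biological replicates but do not tell whether cultures, extractions or lines were repeated. The p-values therefore measure the spread between samples of the same group, pooled over all 53 arrays, which may be technical.

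Eed is the subunit of Polycomb repressive complex 2 (PRC2) that binds trimethylated lysine 27 of histone H3 and is needed for the methyltransferase, Ezh2 or its paralog Ezh1, to place that mark. PRC2 holds many developmental regulators silent in ES cells, and ES cells that lack Eed can still be grown. LIF, acting through STAT3, keeps mouse ES cells in the naive state; when it is withdrawn, naive factors such as Klf4 and Tfcp2l1 are lost and genes of the later, primed epiblast such as Fgf5 and Otx2 come on. The pluripotency factors Pou5f1 and Sox2 persist through this early step.

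Expression is given as the deposited signal of a probe set (intensity units), and a difference as the log2 fold change ± SE on log2(signal + 32), Eed-null minus wild type unless stated otherwise, from a limma fit over all 53 arrays. A gene was called when its adjusted p (Benjamini-Hochberg) was under 0.05 and it differed at least 2-fold, and "rose" and "fell" are used of called genes. Array medians ran from 50.5 to 63.0 across the series, and the number of arrays limits the precision. The relative signal of probe sets of the same gene split the arrays of days 2 and 6 into 2 sets: both Eed-null arrays lay in 1 set with the CJ7 replicates 3 and 4, and the J1 replicates 1 and 2 lay in the other. Line and array set therefore cannot be told apart among the wild-type arrays of day 2, and each result is also given against replicates 3 and 4 alone where that ends the call.

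At day 2 the Eed-null cells had germline genes, the DNA methylation cofactor Dnmt3l, the naive genes Nr0b1 and Fgf4 and a few developmental transcription factors above wild type, while no gene of the primed epiblast list was called. In all, 140 of 13796 genes tested were called (1.01%), 64 higher (0.464%) and 76 lower (0.551%), and 2573 had an unadjusted p under 0.05. The arrays of the 2 groups did not overlap in any of the 140, against 4017 genes without overlap among all tested (29.1%). The calls rest on the same arrays, so this is no separate support for them. Against replicates 3 and 4 alone 136 genes were called (0.986%), 81 higher (0.587%) and 55 lower (0.399%), and against the J1 replicates 1 and 2 alone 551 (3.99%), 134 higher (0.971%) and 417 lower (3.02%). The genes called both ways, in the fit and against replicates 3 and 4 alone, numbered 88, with 54 higher (0.391%) and 34 lower (0.246%). Of the other 52, which kept their direction, 42 were lower and 10 higher. The median over all genes tested was -0.01.

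**Figure D1:**
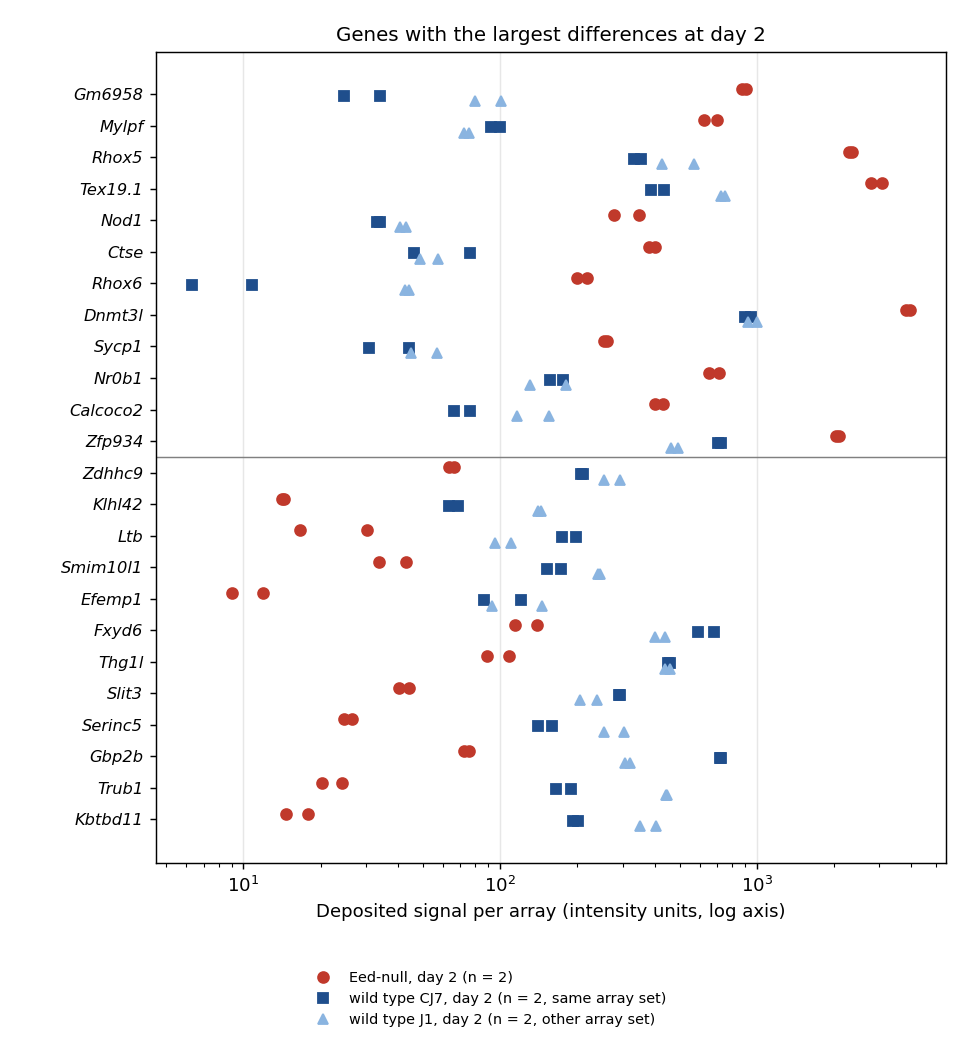
Signal per array (horizontal log axis, intensity units) of the 12 genes with the largest rises and the 12 with the largest falls among those called in both ways; red circles are Eed-null arrays (n = 2), dark squares wild-type CJ7 and light triangles wild-type J1 (n = 2 each). One condition of the choice was that both Eed-null arrays lie on one side of all 4 wild-type arrays. Nod1 had 278 and 347 against 33.2 to 42.9.

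Promoters of 6 genes are printed because these genes rose and their promoters differ in how many CG dinucleotides they hold, the sequence that PRC2-bound promoters are known to be rich in and that germline promoters carry methylated. Each is the 250 bases before the start of transcription in RefSeq (GRCm38.p6), 5′ to 3′, with every CG in capitals. Hoxd13 and Barx1 are homeobox regulators, Sycp1 and Tex19.1 germline genes, Nr0b1 a naive gene and Mylpf a muscle myosin light chain.
Hoxd13, chr2:74667975-74668224, plus strand, 31 CG: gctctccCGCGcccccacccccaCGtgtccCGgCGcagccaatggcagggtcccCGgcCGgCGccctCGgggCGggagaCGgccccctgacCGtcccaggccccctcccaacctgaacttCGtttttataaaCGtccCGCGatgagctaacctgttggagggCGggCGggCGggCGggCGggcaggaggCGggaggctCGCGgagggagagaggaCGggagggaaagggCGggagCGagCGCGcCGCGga
Barx1, chr13:48662786-48663035, plus strand, 40 CG: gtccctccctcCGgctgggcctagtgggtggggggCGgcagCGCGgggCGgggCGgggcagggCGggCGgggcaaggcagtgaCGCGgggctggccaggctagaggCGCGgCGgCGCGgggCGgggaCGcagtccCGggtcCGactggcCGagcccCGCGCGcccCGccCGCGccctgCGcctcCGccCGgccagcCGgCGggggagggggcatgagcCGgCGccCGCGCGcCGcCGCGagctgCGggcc
Sycp1, chr3:102936101-102936350, minus strand, 17 CG: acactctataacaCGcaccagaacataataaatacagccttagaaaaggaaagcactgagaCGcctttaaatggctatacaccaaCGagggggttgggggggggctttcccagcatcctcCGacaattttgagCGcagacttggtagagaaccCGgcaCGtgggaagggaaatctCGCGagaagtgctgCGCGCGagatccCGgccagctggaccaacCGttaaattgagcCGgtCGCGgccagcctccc
Tex19.1, chr11:121145893-121146142, plus strand, 15 CG: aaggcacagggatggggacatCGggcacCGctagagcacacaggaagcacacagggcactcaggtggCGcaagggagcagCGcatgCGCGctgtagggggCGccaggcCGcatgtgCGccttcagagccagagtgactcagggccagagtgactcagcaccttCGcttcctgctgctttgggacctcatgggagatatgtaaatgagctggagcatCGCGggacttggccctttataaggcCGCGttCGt
Nr0b1, chrX:86191525-86191774, plus strand, 11 CG: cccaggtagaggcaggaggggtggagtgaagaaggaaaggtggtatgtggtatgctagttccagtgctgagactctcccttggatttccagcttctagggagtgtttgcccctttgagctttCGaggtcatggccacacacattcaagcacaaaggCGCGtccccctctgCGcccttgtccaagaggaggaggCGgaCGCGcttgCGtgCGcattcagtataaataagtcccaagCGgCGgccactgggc
Mylpf, chr7:127211358-127211607, plus strand, 1 CG: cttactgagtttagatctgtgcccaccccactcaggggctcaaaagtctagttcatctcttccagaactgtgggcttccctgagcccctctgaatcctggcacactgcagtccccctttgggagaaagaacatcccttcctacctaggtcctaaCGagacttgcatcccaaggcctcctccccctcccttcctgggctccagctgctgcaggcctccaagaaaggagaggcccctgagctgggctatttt
The motif searched was CG, which reads the same on both strands, and 98.6% of the 8848 tested genes that had exactly 1 listed start held at least 1. Barx1 had as many or more CG than 98% of these genes, Hoxd13 than 92.3%, Sycp1 than 58.0%, Tex19.1 than 50.4%, Nr0b1 than 35.4% and Mylpf than 3.9%. The 6 do not stand for their classes. Among promoters not printed, the germline gene Rhox5 and the zinc finger gene Zic1, which both rose, held 4 and 27 CG. Slit3, which fell, held 35. The median was 12.5 CG over the 34 of 54 genes called higher in both ways that had 1 listed start, 12.5 over 18 of the 34 called lower, and 15 over all. These counts are a description of the sequence, and no binding or methylation was measured here.

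The genes of the PRC2 subunits Eed, Ezh2, Ezh1 and Suz12 were not called. Eed gave 1676 and 1723 in the Eed-null arrays, against 1678, 1720, 1277 and 1246 in wild type, a difference of 0.21 ± 0.18 (adjusted p = 0.56 in limma). Which exons the Eed mutation touches is not stated in the labels, and this probe set is therefore no check of the genotype. Ezh2 gave 854 and 961 in Eed-null cells and 748.7 to 828.9 in wild type (0.20 ± 0.20), Ezh1 differed by 0.07 ± 0.13, and Suz12, the subunit that holds the complex together, by 0.38 ± 0.26. Of the 13 genes of PRC2 and its partners 1 was called, beside 1.01% of all genes tested, with a list median of 0.20. That was Epop, an elongin-binding partner, with 1326 and 1488 against 449, 420, 623 and 634 (1.37 ± 0.34, adjusted p = 0.011); against replicates 3 and 4 alone it was not called (1.12 ± 0.39, adjusted p = 0.13). Of 17 tested genes of PRC1, the complex that binds the mark, only Bmi1 was called, beside the same 1.01%. It rose to 318 and 380 in Eed-null cells, against 165, 209, 66.4 and 76.2 in wild type (1.34 ± 0.34, adjusted p = 0.015). Bmi1 was not called against the J1 arrays alone (0.80, adjusted p = 0.11).

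Germline and meiosis genes were the list with the most calls: 6 of 28 tested rose, beside 0.464% of all genes tested, and none fell. The list median was 0.21, and the lists were chosen with earlier results of these data known. Tex19.1, a germ cell gene that restrains retrotransposons, stood at 2781 and 3086 in Eed-null cells, against 754, 725, 387 and 435 in wild type, a difference of 2.34 ± 0.35 (adjusted p = 1.9e-05 in limma). Sycp1, which encodes the transverse filaments of the synaptonemal complex, had 255 and 262 against 44.9, 56.7, 44.2 and 30.9 (1.94 ± 0.16, adjusted p = 1.2e-11). Both genes were at least 3 times as bright in each Eed-null array as in any wild-type array. Tex15, needed for meiotic recombination and transposon silencing in male germ cells, had 377 and 425 against 107, 174, 68.6 and 71.1 (1.72 ± 0.23, adjusted p = 2.5e-06).

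The other 3 germline genes that rose belong to the Rhox cluster, reproductive homeobox genes on the X chromosome, whose copies are alike enough that a probe set may read more than 1 of them. Rhox5 had 2350 and 2278 in Eed-null cells, against 567, 426, 333 and 354 in wild type (2.40 ± 0.57, adjusted p = 0.0079). Rhox6 had 198 and 218 against 44.2 and 42.6 in J1 and 6.3 and 10.8 in CJ7 (2.12 ± 0.60, adjusted p = 0.03), and it was not called against the J1 arrays alone (1.67, adjusted p = 0.081). Rhox9 had 173 and 156 against 44.7 to 58.7 (1.24 ± 0.36, adjusted p = 0.038) and was not called against replicates 3 and 4 alone (1.34 ± 0.43, adjusted p = 0.086). Dazl, an RNA-binding protein of germ cells, was not called in the fit (102 and 139 against 105, 98.9, 40.8 and 34.7, 0.65 ± 0.25); against replicates 3 and 4 alone it differed by 1.12 ± 0.26 (adjusted p = 0.0091). Syce1, another synaptonemal complex protein, differed by 0.56 ± 0.15 and stayed under 2-fold. In all 8 of the 54 genes called higher and 3 of the 34 called lower in both ways are X-linked, where 464 of the 13796 genes tested are (3.36%).

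Among naive pluripotency genes 4 of 25 rose, beside 0.464% of all genes tested, and none fell. The list median was 0.46. Dnmt3l, the catalytically inactive cofactor of the de novo DNA methyltransferases, stood at 3803 and 3947 in Eed-null cells, against 925, 998, 901 and 950 in wild type (2.00 ± 0.34, adjusted p = 0.00012). Nr0b1, an orphan nuclear receptor of ES cells, had 649 and 715 against 180, 130, 176 and 156 (1.90 ± 0.42, adjusted p = 0.0043); with cell line as a random block it was not called (its value there was 1.81 and its adjusted p = 0.057), nor without Eed-null replicate 1 (adjusted p = 0.07) or 2 (adjusted p = 0.11). Fgf4, the growth factor through which ES cells drive their own exit from the naive state, had 895 and 958 against 467, 359, 322 and 315 (1.28 ± 0.25, adjusted p = 0.001). In these 3 genes the J1 and CJ7 arrays lay close together and well under the Eed-null arrays. The fourth gene, Zfp57, a zinc finger protein that guards imprints, had 615 and 633 against 72.8 and 84.1 in J1 and 339 in each CJ7 array; it was called in the fit (1.70 ± 0.51, adjusted p = 0.042) and not against replicates 3 and 4 alone (0.82 ± 0.53, adjusted p = 0.57). Dppa2, Dppa3 and Tcl1, which mark early embryonic and naive cells, differed by 0.94 ± 0.32, 1.02 ± 0.35 and 0.88 ± 0.29 and were not called.

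None of the 5 core pluripotency genes was called. Pou5f1 had 3652 and 3774 in Eed-null cells and 3246 to 4026 in wild type (0.07 ± 0.27), so the groups overlapped. Nanog had 2080 and 2078 against 1572 to 1893 (0.27 ± 0.32), and Sox2 had 1885 and 2032 against 1302 to 2131 (0.22 ± 0.38). The summed signal of 7 ES cell markers was 16314.8 and 16741.7 in the Eed-null arrays and 12141.6 to 14124.7 in wild type. Klf4 (156 in each Eed-null array, against 109 to 196) and Socs3, the feedback inhibitor that LIF induces (121 and 119 against 101 to 157), were low in both genotypes and did not differ beyond the spread (0.10 ± 0.32 and -0.03 ± 0.19). None of 12 LIF and STAT3 response genes was called.

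None of 14 primed epiblast genes was called either, and their median was -0.001. Fgf5 had 789 and 771 in Eed-null cells, against 1127, 1093, 969 and 911 in wild type, so each Eed-null array lay under each wild-type array, but the difference (-0.38 ± 0.54, adjusted p = 0.75) was within its error. That error is pooled over all 15 groups, and Fgf5 varied widely in some of them, from 510 to 1704 in Ezh2-null cells of day 2. Otx2 had 1581 and 1746 against 747 to 1238 (0.60 ± 0.50). Of 24 primitive streak and mesoderm genes 0 were called in the fit, with a median of 0.07; against replicates 3 and 4 alone Sp5, a Wnt target, was lower (70 and 59.4 against 268 and 308, -1.73 ± 0.44, adjusted p = 0.02). No endoderm (27 tested), blood (17) or cardiac and muscle gene (16) was called in the fit. Actc1, cardiac actin, had 34.4 and 59.5 against 184 to 225 and missed the threshold (-1.57 ± 0.51, adjusted p = 0.064). With the array set as a block Actc1 was called (-1.87, adjusted p = 0.037), and so were Acta1, skeletal muscle actin (-2.64, adjusted p = 0.019), Sp5 (-1.47, adjusted p = 0.035) and, higher, the laminin chain gene Lama1 (1.85, adjusted p = 0.0086). Against replicates 3 and 4 alone 1 endoderm gene was called, lower in Eed-null cells.

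Of 24 Hox genes 1 rose, beside 0.464% of all genes tested, with a median of 0.29: Hoxd13, the most 5′ gene of its cluster, had 268 and 250 in Eed-null cells, against 70, 93.2, 54.8 and 82.5 in wild type (1.46 ± 0.15, adjusted p = 6.5e-09). Its neighbours Hoxd9 and Hoxd10 and the distant Hoxa10 passed the p threshold but not the 2-fold threshold, at 1.00 ± 0.22 for Hoxd9, 0.78 ± 0.18 for Hoxd10 and 0.70 ± 0.14 for Hoxa10. Hoxd9 also passed the 2-fold threshold under quantile normalisation or centring, where 2 Hox genes were called.

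Of 47 other developmental transcription factors 3 rose, beside the same 0.464%, and none fell, with a median of 0.19. Barx1, a homeobox factor of stomach and tooth, had 164 and 198 against 64.8 to 74.9 (1.06 ± 0.10, adjusted p = 1.2e-09). Meis2, a cofactor of Hox proteins, had 249 and 290 against 108, 137, 79.7 and 85.8 (1.18 ± 0.33, adjusted p = 0.027). Tcf15, a basic helix-loop-helix factor of early mesoderm that also marks ES cells about to leave the naive state, had 1139 and 1037 against 646, 532, 435 and 333 (1.15 ± 0.34, adjusted p = 0.042). Of 26 neural genes only Zic1, a zinc finger factor of the dorsal neural tube, rose: 146 and 165 against 43.3, 57.4, 27.2 and 11.6 (1.54 ± 0.30, adjusted p = 0.0012). Apart from Tcf15 these genes had signals of 290 or less in the arrays of both genotypes. Against the J1 arrays alone Meis2 (0.97, adjusted p = 0.066) and Tcf15 (0.85, adjusted p = 0.11) were not called. Of 19 trophoblast genes 1 was called, the keratin Krt7, with 123 and 152 against 46.1 to 61.9 (1.00 ± 0.28, adjusted p = 0.028; 0.91 ± 0.33, adjusted p = 0.15, against replicates 3 and 4 alone).

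Single members of further lists rose as well, beside 0.464% of all genes tested. Of 30 imprinted genes 2 rose, both expressed from the paternal copy: Mest had 2088 and 2252 in Eed-null cells, against 718 to 916 in wild type (1.36 ± 0.22), and Peg3 had 1912 and 2014 against 507 to 931 (1.34 ± 0.22, adjusted p = 6.9e-05 for each). Of 17 cell cycle inhibitors and cyclins Ccnd2, a cyclin that promotes rather than blocks the cycle, rose by 1.18 ± 0.26 and Gadd45g, a growth arrest gene, by 1.14 ± 0.30. Of 19 targets of p53 only Pmaip1, which encodes the death-promoting protein Noxa, rose (1457 and 1574 against 438 to 668, 1.48 ± 0.25, adjusted p = 0.00014). Of 53 genes of Wnt, BMP, Nodal and FGF signalling 2 rose, Fgf4 and the secreted Wnt antagonist Sfrp1 (327 and 360 against 204, 211, 97.2 and 99.5). Of 12 genes of DNA methylation Dnmt3l alone was called. None of 25 proliferation genes was called, and of 11 ribosomal protein genes Rps6 was (596 and 627 against 216 to 360, 1.04 ± 0.17). Of these genes Gadd45g (0.78, adjusted p = 0.094), Sfrp1 (0.65, adjusted p = 0.21) and Rps6 (0.73, under 2-fold) were not called against the J1 arrays alone. With the array set as a block Ccnd2 was under 2-fold (0.91) and Gadd45g was not called (1.04, adjusted p = 0.072).

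The gene that differed most was Gm6958, a predicted gene with similar copies elsewhere, so that its values may include theirs: it stood at 911 and 874 in Eed-null cells, against 79.7 and 101 in J1 and 34 and 24.7 in CJ7 (3.42 ± 0.34, adjusted p = 2.1e-09). Its other probe set differed by 2.79. Mylpf, the regulatory light chain of fast muscle myosin, had 698 and 624 against 72.6 to 99.9 (2.57 ± 0.43, adjusted p = 0.00011). Nod1, an intracellular sensor of bacterial cell walls, had 278 and 347 against 33.2 to 42.9 (2.30 ± 0.14, adjusted p = 2e-16), the smallest p of the 12 largest rises. Ctse, cathepsin E, had 382 and 401 against 46 to 76 (2.26 ± 0.15), but its other probe set, dim in both groups, differed by 0.04. Calcoco2, an autophagy receptor, rose by 1.77 ± 0.45 and Zfp934, a zinc finger gene of a large family of similar copies, by 1.76 ± 0.19.

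The 12 largest falls were in genes of many kinds, among them membrane proteins, secreted proteins and RNA-modifying enzymes. Kbtbd11, a kelch-repeat protein, had 14.6 and 17.9 in Eed-null cells, against 351, 406, 192 and 202 in wild type (-2.67 ± 0.32, adjusted p = 1.8e-07). Trub1, a pseudouridine synthase, had 20.3 and 24.3 against 444, 449, 165 and 189 (-2.54 ± 0.33), and Thg1l, which adds the guanosine at the 5′ end of histidine tRNA, had 108 and 89.1 against 440 to 460 (-1.90 ± 0.17, adjusted p = 7.9e-11). In Trub1 and Kbtbd11 the J1 arrays were brighter than the CJ7 arrays, and both lay far above the Eed-null arrays. Gbp2b, an interferon-inducible GTPase with near-identical relatives, had 75.8 and 72.2 against 307, 321, 723 and 718 (-2.27 ± 0.51, adjusted p = 0.0049). Slit3, a secreted ligand of Robo receptors, had 40.3 and 44.1 against 206 to 293 (-1.95 ± 0.28, adjusted p = 9e-06), and Serinc5, a membrane protein that hinders retroviruses, had 26.6 and 24.6 against 140 to 303 (-2.04 ± 0.36, adjusted p = 0.00021).

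Efemp1, a fibulin of the extracellular matrix, fell to 11.9 and 9 in Eed-null cells, against 86.8 to 145 in wild type (-1.74 ± 0.38, adjusted p = 0.0037). Fxyd6, a regulator of the sodium pump, fell by 1.79, the small membrane protein Smim10l1 by 1.72, the lymphotoxin Ltb by 1.64 and the palmitoyltransferase Zdhhc9 by 1.49 on the log2 scale. Klhl42, an adaptor of ubiquitin ligases, had 14.4 and 14.1 against 63.5 to 144.8 (-1.499 ± 0.26). Other probe sets of some of these genes were dim and differed less: -0.58, -0.03 and -0.67 for Kbtbd11, -0.02 for Trub1, 0.14 for Thg1l, -0.20, -0.34 and -0.27 for Smim10l1 and 0.20 for Zdhhc9.

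Several calls among the lower genes rested on the J1 arrays. Of 25 glycolysis and hypoxia genes 2 were called, Egln1, the oxygen-sensing prolyl hydroxylase, and Ddit4, a stress inhibitor of mTOR. Among all genes tested 0.551% were called lower. Egln1 had 136 and 140 in Eed-null cells, against 692 and 380 in J1 and 230 and 234 in CJ7 (-1.16 ± 0.35, adjusted p = 0.047; -0.64 ± 0.37, adjusted p = 0.50, against CJ7 alone). Ddit4 differed by -1.25 ± 0.38 (adjusted p = 0.049; 0.37 against CJ7 alone). Egr1, the 1 immediate early gene of 22 that was called, had 113 and 117 against 388, 396, 196 and 227 (-1.12 ± 0.31, adjusted p = 0.028; 0.35 against CJ7 alone). Xist, the RNA that coats the inactive X chromosome, had 175 and 187 against 548, 439, 339 and 347 (-1.06 ± 0.22, adjusted p = 0.0024). Against CJ7 alone Xist differed by -0.82 ± 0.25 (adjusted p = 0.066). Of 4 sex chromosome markers tested it alone was called. The Y-linked Eif2s3y had 359 and 422 in Eed-null cells and 276.6 to 520.5 in wild type (0.05 ± 0.84). X inactivation was not tested.

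Feeder cells were measured through 8 fibroblast markers, none of which was called. Their summed signal was 1000.2 and 1159.8 in the Eed-null arrays, 424.5 to 677.3 in wild type and 33560.1 to 38382.3 in the series' 2 arrays of mouse embryonic fibroblasts (MEF); Col1a1 had 124 and 131 in Eed-null cells and 30.5 to 97.6 in wild type. Of the 54 genes called higher in both ways, 14 (25.9%) were brighter in MEF than in Eed-null cells, against 52.1% of all genes tested; Gm6958, with 1558.5 and 2053 in the MEF arrays, and Nod1, with 520 and 647, were among the 14, while Sycp1 (23.9 and 20.4), Tex19.1 (31.1 and 23.7) and Mylpf (11.9 and 15.8) were not. Of the 34 called lower, 28 (82.4%) were brighter in MEF than in Eed-null cells, beside the same 52.1% of all genes. Genes were called by these same Eed-null signals, which moves the share down for rises and up for falls. The shares are therefore no test of feeder RNA. Brighter in MEF than in wild-type cells of day 2 were 15 of the 34 called lower (44.1%), beside 51.6% of all genes. Efemp1 is 1 of these 15, with 3297.5 and 4384.7 in MEF. Of the 54 called higher, 21 (38.9%) were brighter in MEF than in wild-type cells. Wild-type signals entered the calls as well, so these shares are no test either. The part of feeder RNA in these differences was not tested. In bulk RNA, fewer cells that express a gene and less RNA per cell cannot be told apart.

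The change after 2 days without LIF was then measured within the Eed-null cells (day 2 minus day 0). In all 462 genes were called (3.35%), 150 higher (1.09%) and 312 lower (2.26%). Naive genes fell and primed genes rose in these cells: 12 of 25 naive genes fell and none rose (median -0.87), 6 of 12 LIF and STAT3 response genes fell, and 7 of 14 primed epiblast genes rose and none fell (median 0.99). Klf4 stood at 156 in each Eed-null array of day 2, against 1891 to 2255 at day 0 (-3.48 ± 0.31, adjusted p = 8.9e-11), and Socs3 at 121 and 119 against 1113 to 1804 (-3.35 ± 0.18, adjusted p = 5.3e-18). Tfcp2l1 changed by -2.99 ± 0.38. Pim2, a kinase gene, rose by 3.43 ± 0.36, Fgf5 by 3.05 ± 0.52, the growth factor Fgf8 by 2.95 ± 0.42 and Otx2 by 2.48 ± 0.48. In wild type (day 2 minus day 0) 463 genes were called (3.36%). There 19 of the 25 naive genes fell (median -1.56) and 6 of the 14 primed genes rose (median 0.89). Klf4 changed in wild type by -2.99 ± 0.23 and Fgf5 by 3.65 ± 0.39. The wild-type arrays of day 0 were not alike, and Fgf5 had 3.8 to 11.4 in replicates 1 to 3 and 60.2 to 195.1 in replicates 4 to 7. All 5 Eed-null arrays of day 0 lay in the array set of the J1 arrays and both of day 2 in the other, so within the Eed-null cells alone array set and time cannot be told apart. With the array set as a block, estimated from the ES cell arrays of the other groups, 388 genes were called (2.81%), 199 higher (1.44%) and 189 lower (1.37%), and 153 of the 462 were called in the same direction there. In that fit 9 of the 25 naive genes fell, 5 LIF and STAT3 response genes fell and 8 of the 14 primed genes rose, with Klf4 at -2.79, Fgf5 at 3.34 and Otx2 at 1.34. Without the block 5 of 28 tested fibroblast genes fell in Eed-null cells and 0 rose (median -0.74), beside 2.26% of all genes called lower. The part of feeder RNA in this change was not tested.

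Whether the difference between the genotypes was another at day 2 than at day 0 was tested as an interaction, in which a positive value means that the Eed-null difference was higher at day 2. In all 358 genes were called (2.59%), 141 higher (1.02%) and 217 lower (1.57%). Array set bears on this test too, since the Eed-null arrays of days 0 and 2 lie in different sets. With wild-type day 2 replicates 3 and 4 alone 422 genes were called, and 222 of the 358 were among them. With the array set as a block 370 were called, and 234 of the 358 were among them. With wild-type day 0 replicates 4 to 7 alone 315 were called, and 227 of the 358 were among them. Feeder signal was unequal at day 0. There 12 of the 28 tested fibroblast genes were called higher in Eed-null cells (median 0.98), beside 1.5% of all genes. In the interaction 2 of the 28 were called lower and 0 higher (median -0.79). Col1a1 had 518 to 788 in Eed-null day 0 replicates 1 to 4 and 9 in replicate 5, against 3.3 to 237 in wild type. The part of feeder RNA in the interaction was not tested. Of the naive genes 7 of 25 were called, all higher, with a median of 0.63 beside -0.07 over all genes. Nr0b1 had 649 and 715 in Eed-null cells at day 2 and 810 to 1153 at day 0, against 130 to 180 at day 2 and 656 to 1863 at day 0 in wild type (interaction 2.25 ± 0.51, adjusted p = 0.0027). Fgf4 fell by 1.56 in wild type, while in Eed-null cells its change was -0.26 ± 0.24 (interaction 1.30 ± 0.30, adjusted p = 0.0034). Dnmt3l changed by 0.64 ± 0.33 in Eed-null cells and by -0.84 ± 0.25 in wild type (interaction 1.49 ± 0.41, adjusted p = 0.013). Gbx2, a homeobox gene that LIF maintains, and Dppa2 were called too, at 1.51 ± 0.25 and 1.43 ± 0.39.

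Of the primed genes 1 was called higher and 1 lower. The higher was Dnmt3a, a de novo DNA methyltransferase, with 1600 and 1740 in Eed-null cells of day 2 and 531 to 1048 at day 0 (interaction 1.21 ± 0.38, adjusted p = 0.029). Wild type had 1441 and 1375 in J1 and 760 and 716 in CJ7 at day 2, and 868 to 1748 at day 0. Under quantile normalisation 0 primed genes were called higher, and under centring 2 were. Fgf5 (-0.59 ± 0.65) and Otx2 (1.41 ± 0.60, adjusted p = 0.12) were not called. Of 22 immediate early genes 5 were called, all lower, beside 1.57% of all genes tested. Fos had 42.6 and 53.7 in Eed-null cells of day 2 and 352 to 611 at day 0, against 43.5 to 72.1 at day 2 and 46.4 to 107 at day 0 in wild type (interaction -2.46 ± 0.36, adjusted p = 1.4e-05). The other large positive values were Ina, a neuronal intermediate filament (2.30 ± 0.38), Tcea3, an elongation factor (2.01 ± 0.38), Tcf15 (1.97) and Ces2b, a carboxylesterase (1.92 ± 0.39). At day 2 itself Ces2b was called in the fit (1.44, adjusted p = 0.0052) and not against replicates 3 and 4 alone (1.01, adjusted p = 0.14). Beside Fos, the largest negative values were Malat1, a nuclear long RNA (-2.82 ± 0.86, adjusted p = 0.025), Fst, the activin antagonist follistatin (-2.80 ± 0.61), Plagl1, an imprinted zinc finger gene (-2.23 ± 0.76, adjusted p = 0.044), and Nefm, a neurofilament (-2.21 ± 0.57). Malat1 and Plagl1 were much dimmer in wild-type replicates 1 to 3 of day 0 than in the other 4 (65.6 to 147 against 1135 to 1922 for Malat1), and with replicates 4 to 7 alone neither was called (-1.34, adjusted p = 0.068, and -0.88, adjusted p = 0.14). Fst and Nefm were called with those 4 arrays as well (-1.94 and -1.63). Plagl1 was not called with wild-type day 2 replicates 3 and 4 alone either (-2.19, adjusted p = 0.079).

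**Figure D2:**
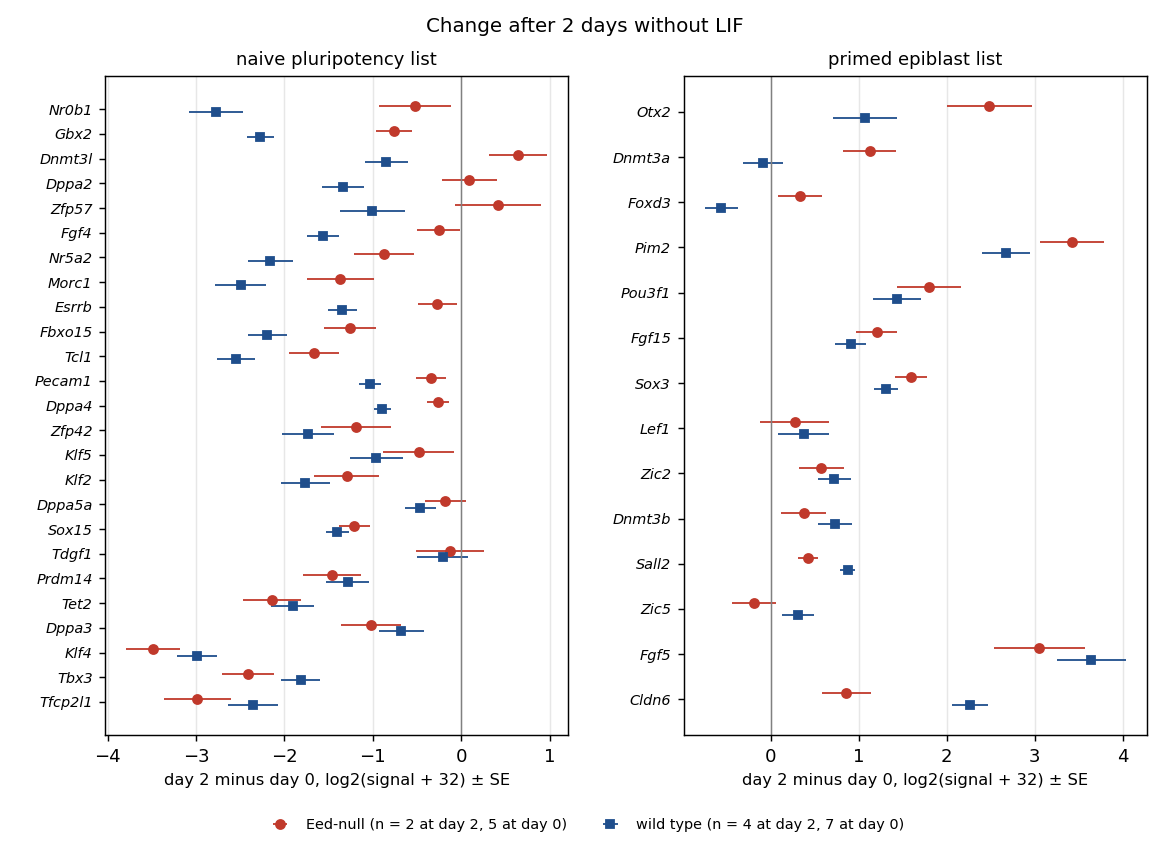
Change from day 0 to day 2 (horizontal axis, day 2 minus day 0 on log2(signal + 32), ± SE) of each naive gene (left) and primed gene (right) tested; circles are Eed-null cells and squares wild type, sorted by the difference between them. Nr0b1 and Gbx2 changed by -0.53 and -0.76 in Eed-null cells, beside -2.78 and -2.27 in wild type, while Klf4 and Tfcp2l1 fell in both.

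With the signals as deposited the median over all genes was -0.07 in the interaction. When each array was centred on its own median it was 0.07, and the calls split into 233 higher and 149 lower instead of 141 and 217. For the change in Eed-null cells the median was -0.08 as deposited and 0.03 after centring, which gave 219 higher and 228 lower calls. The naive list kept its direction under centring (9 of 25 called higher in the interaction, 11 of 25 lower in Eed-null cells) and under quantile normalisation (7 and 11).

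The day 2 differences were also read against those of days 0 and 6, which share no arrays with them but use cells of the same labels. At day 0, 303 genes were called (2.2%), and at day 6, 418 (3.03%). Of the 64 genes higher at day 2, 26 were higher at day 0 as well, 40.6% of the day 2 list and 12.6% of the 207 genes called higher at day 0 (1.5% of those tested). At day 6 it was 35, 54.7% of the day 2 list and 13.8% of 253 (1.83%). Of the 76 lower genes 15 were lower at day 0 (19.7% of the day 2 list and 15.6% of 96, which are 0.696% of those tested) and 19 at day 6 (25% of the day 2 list and 11.5% of 165, which are 1.2%). No gene was called in opposite directions. Of the 54 called higher in both ways 18 were called at both other days and 20 at neither, and of the 34 called lower 5 and 18.

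**Figure D3:**
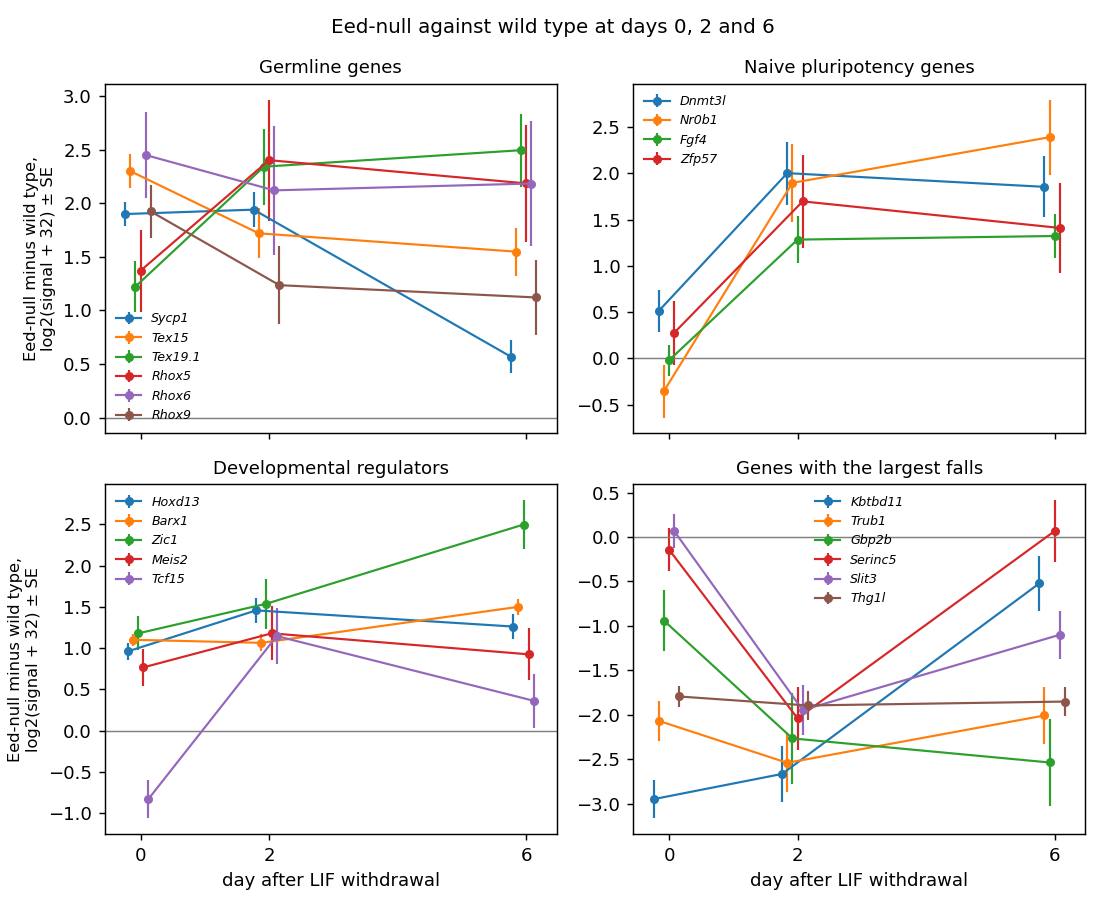
Eed-null minus wild-type difference (vertical axes, log2(signal + 32), ± SE) at days 0, 2 and 6 for germline genes, naive genes, developmental regulators and the 6 largest falls. Germline genes lie above 0 at all 3 days, whereas Nr0b1 moves from -0.35 at day 0 to 1.90 at day 2 and 2.39 at day 6.

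Of the 6 germline genes Tex15, Tex19.1, Rhox5, Rhox6 and Rhox9 were called at each of the 3 days. Tex15 differed by 2.30 ± 0.16 at day 0, 1.72 ± 0.23 at day 2 and 1.55 ± 0.23 at day 6, while Rhox5 differed by 1.37 ± 0.38 before LIF withdrawal, 2.40 ± 0.57 after 2 days and 2.19 ± 0.55 after 6 days. Sycp1 was called at days 0 and 2 (1.90 and 1.94) and was under 2-fold at day 6 (0.57 ± 0.16). Among naive genes Nr0b1 was not called at day 0 (-0.35 ± 0.28), and Fgf4 (-0.02 ± 0.17) and Dnmt3l (0.51 ± 0.23) were not either; all 3 were called at days 2 and 6. Zic1 differed by 1.18 ± 0.20, 1.54 ± 0.30 and 2.50 ± 0.29 over the 3 days, and Esx1, a trophoblast homeobox gene, by 0.82 ± 0.12, 0.64 ± 0.18 and 3.36 ± 0.17. Among the falls Thg1l and Trub1 were called at all 3 days (-1.79, -1.90 and -1.85 for Thg1l), Kbtbd11 at days 0 and 2 (-2.95 and -2.67, then -0.52 ± 0.31 at day 6), and Serinc5 at day 2 only (-0.14 ± 0.24, -2.04 ± 0.36 and 0.07 ± 0.35).

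Cells lacking the other PRC2 subunit, Ezh2, were compared directly with the Eed-null cells at day 2, without the wild-type arrays. In all 90 genes were called (0.652%), 24 higher in Eed-null cells (0.174%) and 66 lower (0.478%), and against Ezh2-null replicates 3 and 4 alone, which lie in the array set of the Eed-null arrays, 48 (0.348%), 24 higher and 24 lower. In both, 15 were higher and 20 lower. Ezh2 itself had 854 and 961 in Eed-null cells and 98.8 to 160 in Ezh2-null cells (2.50 ± 0.20, adjusted p = 2.7e-12), which checks the Ezh2-null label. Several genes that differed most from wild type, a comparison that uses the same Eed-null arrays, also differed here: Gm6958 by 3.65 ± 0.34, Ctse by 2.27 ± 0.15, Nod1 by 2.22 ± 0.14 and Sycp1 by 1.68 ± 0.16, and the 4 Ezh2-null arrays of Nod1 (26.7 to 53.6) spanned the wild-type range. Trub1 (-2.51 ± 0.33), Serinc5 (-2.41 ± 0.36), Kbtbd11 (-2.36 ± 0.32) and Gbp2b (-2.12 ± 0.51) were lower in Eed-null cells, Gbp2b not when set against replicates 3 and 4 alone (adjusted p = 0.32). Actc1 was lower by 2.83 on the log2 scale, with 34.4 and 59.5 in Eed-null cells against 465.8 to 568.2 in Ezh2-null cells.

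**Figure D4:**
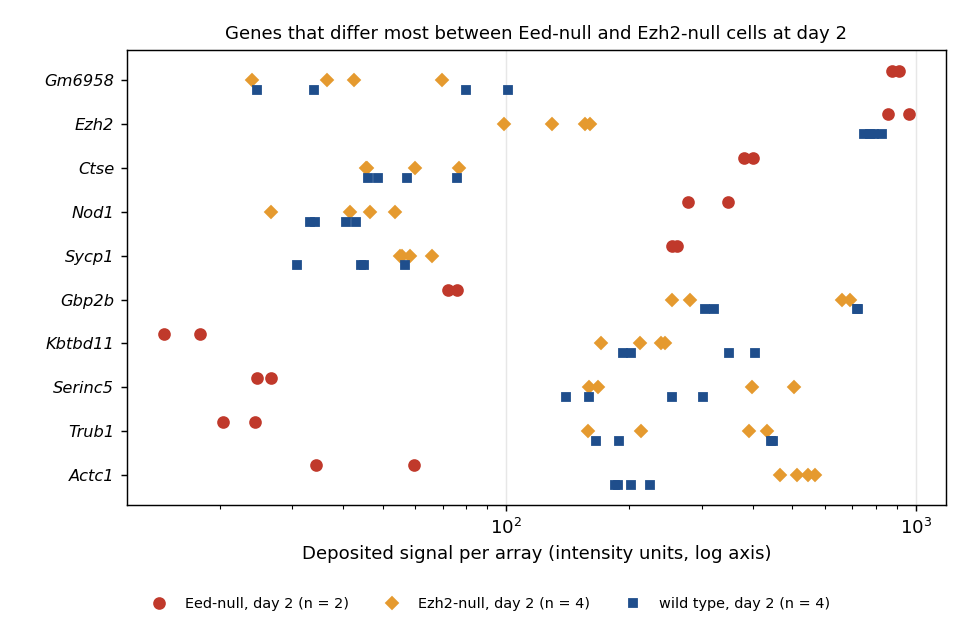
Signal per array (horizontal log axis, intensity units) of the 5 genes most above and the 5 most below Ezh2-null cells in Eed-null cells at day 2; circles are Eed-null (n = 2), diamonds Ezh2-null (n = 4) and squares wild-type arrays (n = 4). For Gm6958, Ctse, Nod1 and Trub1 the Ezh2-null arrays lie in or next to the range of wild type, while for Ezh2 the Ezh2-null arrays are the ones apart and for Actc1 they are the brightest.

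Other genes that rose in Eed-null cells were not called against Ezh2-null cells. In several of them Ezh2-null replicates 1 and 2 lay apart from replicates 3 and 4, which are of the other array set. Mylpf had 698 and 624 in Eed-null cells, and in Ezh2-null cells 162 and 157 in replicates 1 and 2 but 766 and 721 in replicates 3 and 4 (0.84 ± 0.43 over all 4, -0.16 against replicates 3 and 4). Tex19.1 had 1111, 1043, 2715 and 2506 in the 4 Ezh2-null arrays (0.79 ± 0.35, and 0.17 against replicates 3 and 4), and Dnmt3l 1090, 1264, 2891 and 3018 (1.04 ± 0.34, and 0.39). Rhox5 had 370, 319, 1673 and 1593 (1.57 ± 0.57, and 0.49). In wild type replicates 3 and 4 were no such step above replicates 1 and 2 in Tex19.1, Dnmt3l and Rhox5. The Y-linked gene Eif2s3y had 589 and 540 in Ezh2-null replicates 1 and 2 but 15 and 9.2 in replicates 3 and 4. In Eed-null cells it had 359 and 422, and it was called against replicates 3 and 4 alone (3.26, adjusted p = 0.027 in limma). Ezh2-null replicates 3 and 4 thus differed from replicates 1 and 2 in a Y-linked gene as well as in array set. The cause of the split in Ezh2-null cells was not tested. Tex15 and Hoxd13 were higher in Eed-null than in Ezh2-null cells both over all 4 arrays (1.42 ± 0.23 and 1.27 ± 0.15) and against replicates 3 and 4 (1.64 and 1.23). Of the Hox genes Hoxd10 was called here too (1.03).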

How the data were processed

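Per the labels' protocols, Trizol RNA was turned into biotinylated cRNA for the arrays. The authors deposited linear intensity values per probe set; how these were summarised and scaled is not reported in the labels. The values ran from 0.4 to 33985.898. Of 45037 probe sets 34945 had 1 gene symbol, 932 several and 9160 none, and each of 18193 genes was represented by its probe set of highest mean. The deposited values were turned into log2(value + 32), and 13796 genes above the array median in at least 2 arrays were fitted with limma 3.58.1 (R 4.3.3) on 15 groups of 53 arrays, which left 38 residual degrees of freedom beside a prior of 4.7. P-values were adjusted over all genes tested by Benjamini-Hochberg, with limits of 0.05 and 2-fold for a call. Array sets came from a score over 4841 within-gene probe set pairs (35.6% of variance), which is empty between 11.03 and 20.44; no label names them. In simulated data for the comparison with wild type, over 13796 genes, 20 of 50 genes changed 2-fold, 49 of 50 changed 3-fold and 50 of 50 changed 4-fold were called, with 2 unchanged genes called. The simulated noise was independent between arrays and held no effect of line or array set, so these rates may not hold for the real arrays. Genes named are the 12 largest rises and 12 largest falls called in both ways, 5 and 5 for each other comparison, the called members of 28 lists with up to 3 further members by p, and a set of always-named genes. The members and lists were chosen with earlier results of these data known. Alternatives were other pseudocounts, filters, scalings, probe set rules, blocks, array weights and fits without single arrays; 2 were added after the data were seen, the fits with Ezh2-null replicates 3 and 4 alone and with wild-type day 0 replicates 4 to 7 alone.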

Additional observations from a re-analysis of the deposited data

Results flagged for a closer look

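The difference between Eed-null and wild-type cells was tested at day 2 minus day 0. Among the 48 named genes called at day 2 it was another at day 2 in 14, beside 2.59% of all genes tested. These genes were picked by the day 2 difference, which is part of the interaction, so their share is no separate support. It was higher at day 2 for Nr0b1 (2.25), Tcf15 (1.97), Ces2b (1.92), Mylpf (1.55), Dnmt3l (1.49), Mest (1.34) and Fgf4 (1.3), in log2 units. It was lower at day 2 for Slit3 (-2.02), Efemp1 (-1.96), Serinc5 (-1.9), Egln1 (-1.68), Klhl42 (-1.5), Zdhhc9 (-1.41) and Xist (-1.36). Each passed the interaction test in limma, and the Eed-null arrays of the 2 days lie in different places of the array score.

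Single arrays stood away from their group in 4 of 164 checks, where chance flags about 1 in 20. In Eed-null replicate 1 of day 0, Dppa3 had a signal of 472.2 beside 783.5 to 939.2 in the other arrays, Lama1, a laminin chain, had 1178.6 beside 411.8 to 551.2, and Zdhhc9 had 226.3 beside 95.5 to 117.6. In Eed-null replicate 5 of day 0, Fos had 352.1 beside 548.9 to 611.0.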

How the results depend on the processing

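The 140 genes called between Eed-null and wild-type cells at day 2 became 551 with wild-type replicates 1 and 2 alone, 221 with a pseudocount of 8, 52 with the larger pseudocount, 91 when probe sets were averaged, 496 with array weights, 435 with a minimum fold of 1.5 and 609 with no minimum fold. Leaving out single arrays gave 65 to 172, with 76 without Eed-null replicate 1 and 65 without Eed-null replicate 2. For the day 2 minus day 0 interaction (358) these settings gave 723 with wild-type replicates 1 and 2 alone, 586, 138, 223, 737, 1297 and 1762 in the same order, and single arrays left out gave 210 to 410, with 235 without Eed-null day 2 replicate 1 and 210 without replicate 2. Against Ezh2-null cells (90) the counts were 48 with Ezh2-null replicates 3 and 4 alone, 160 and 31 with the smaller and larger pseudocount, 56 when probe sets were averaged, 39 with only the arrays compared, 656 with array weights, 49 with cell line as a random block, 309 with a minimum fold of 1.5 and 408 with none. Single arrays left out gave 52 to 187 there: 52 and 53 without Eed-null replicate 1 or 2, and 57, 167 and 187 without Ezh2-null replicate 2, 3 or 4. For Eed-null day 2 against day 0 (462) they were 736 and 201 with the pseudocounts, 269 when probe sets were averaged, 1646 and 2893 with the lower folds, and 330 to 520 without single arrays. With the replicate number as a block the 4 counts were 637, 340, 846 and 697; same-numbered Eed-null and wild-type arrays of day 2 correlated at -0.0448 and 0.0514, so the numbers do not pair the arrays. None of the 48 named genes called at day 2 changed direction under the alternatives run, while 16 of the 102 named genes not called did under at least 1, such as Klf4 (0.10 in the fit and -0.18 against replicates 1 and 2 alone). All 48 were called under quantile normalisation and under centring, 40 against replicates 1 and 2 alone, 39 against replicates 3 and 4 alone, 38 with the array set as a block, 35 when probe sets were averaged, 34 with only the arrays compared, 31 with cell line as a random block, 27 with the larger pseudocount, and 26 and 23 without Eed-null replicate 1 or 2; the cause was not tested. With cell line as a random block Calcoco2 (adjusted p = 0.084) and Rhox6 (adjusted p = 0.16) were lost beside Nr0b1, and without either Eed-null array Calcoco2, Efemp1, Gbp2b, Ltb, Rhox5 and Rhox6. Having 2 Eed-null arrays limits what changes near 2-fold can be called.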
